A study of Homo sapiens with 9 samples.

Results

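Markers of the epithelial-mesenchymal transition (EMT) were followed in 9 RNA-seq libraries after knockdown of Linc00673, a long intergenic non-coding RNA. The 10 markers were CDH1, EPCAM, CDH2, VIM, FN1, SNAI1, SNAI2, ZEB1, ZEB2 and TWIST1. Each was matched by its gene symbol, 9 had a line among the 19930 genes of the table, and TWIST1 was not analysed here. Of these 9, 7 reached a mean of 1 FPKM (a fragment count corrected for transcript length and library size) over the libraries, and CDH2 and ZEB2 were not expressed. The libraries are labelled as MDA-MB-453, an established human breast cancer cell line, harvested 48 h after siRNA transfection with Lipofectamine. The groups X453_NC (scrambled control siRNA), X453_1 and X453_2 (Linc00673 knockdown) hold 3 libraries each, and all 3 groups were transfected. X453_1 and X453_2 carry the numbers of the siRNAs in the study, although the labels do not state which siRNA each group received. No library label speaks of separate cultures, so the p-values measure the spread between libraries, which may be technical. The knockdown of Linc00673 itself was not analysed here.

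In EMT, epithelial cells lose the cadherin junctions that hold them to their neighbours and take on a mesenchymal cytoskeleton and matrix. The transcription factors of the Snail family (SNAI1, SNAI2), the ZEB family (ZEB1, ZEB2) and TWIST1 drive the change, and the Snail and ZEB proteins repress CDH1 and other epithelial genes by binding E-boxes in their promoters. Breast cancer cells often hold intermediate states in which epithelial and mesenchymal genes are expressed side by side.

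The siRNAs are shown because the comparisons rest on them, and a guide strand can also act on transcripts that match its seed. The antisense strands are given 5′ to 3′, with the seed (bases 2 to 8) in capitals.
Control-siRNA anti-sense: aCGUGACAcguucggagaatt
LINC00673-siRNA1 anti-sense: aGAAACCUcugauuccacctt
LINC00673-siRNA2 anti-sense: uUAUUAUUugagacagggucu
The 3 strands have 21 bases each, and their seeds differ from one another.

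The E-box bound by the Snail and ZEB proteins, CACCTG on one strand and CAGGTG on the other, was searched in RefSeq promoters (GRCh38.p14, 250 bases before to 50 bases after a start site). Of 35116 such windows, 20.6% held it. ZEB1 had 7 windows, of which 2 held an E-box, while none of the windows of CDH2 (2 windows), VIM, FN1 and ZEB2 (1 window each) did. The ZEB1 window chr10:31318966-31319265 on the plus strand is shown because ZEB1 is itself one of the markers and this window held 3 E-boxes, given in capitals, which begin 242 and 85 bases before and 33 bases after the start site.
ZEB1 promoter: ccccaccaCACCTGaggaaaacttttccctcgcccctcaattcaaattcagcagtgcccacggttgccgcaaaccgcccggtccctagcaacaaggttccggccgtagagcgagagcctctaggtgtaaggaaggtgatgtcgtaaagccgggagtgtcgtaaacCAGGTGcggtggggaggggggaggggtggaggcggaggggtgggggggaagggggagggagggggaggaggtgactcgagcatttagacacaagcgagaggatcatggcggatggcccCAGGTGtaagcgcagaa
Such a match is a description of the letters in the window. CDH1, EPCAM, SNAI1, SNAI2 and TWIST1 had no window in the set used here.

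The libraries held between 23400000 and 27900000 fragments, estimated from the spacing of low FPKM values. Libraries of a group correlated at 0.994 to 0.996 across the 12884 tested genes, and knockdown libraries correlated with control libraries at 0.955 to 0.973. The luminal keratins KRT8 (3011.46 to 3773.05 FPKM), KRT18 (1679.95 to 2508.96 FPKM) and KRT19 (1043.54 to 1292.58 FPKM) were among the most abundant transcripts of their list. Defining transcription factors of luminal breast cells, the type MDA-MB-453 is known as, went against the label: FOXA1 did not exceed 0.04 FPKM, and GATA3 lay between 0.41 and 0.88 FPKM. ERBB2 lay between 11.79 and 17.82 FPKM. These 3 genes were named after their values were seen, and the cell line is called by its label throughout. Of the 5 fibroblast markers, COL1A1 (3.49 to 7.08 FPKM) and LUM (5.33 to 7.11 FPKM) were expressed, while PDGFRB lay between 0.18 and 0.43 FPKM and COL1A2 and DCN did not exceed 0.12 and 0.04 FPKM. Of the immune and endothelial markers, VWF lay between 0.45 and 0.87 FPKM, CD14 between 0.08 and 0.28 FPKM and PECAM1 between 0.07 and 0.12 FPKM, and the leukocyte marker PTPRC did not exceed 0.07 FPKM.

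Epithelial and mesenchymal markers were expressed together in the control libraries. VIM, the intermediate filament of mesenchymal cells, had the highest mean of the markers over the 9 libraries, and 98.8% of the 12884 tested genes were lower. EPCAM, an epithelial surface adhesion molecule, was close behind, above 98.5% of genes. CDH1 (E-cadherin), the adherens junction receptor of epithelia, was above 95.1% of genes. By the same mean over the 9 libraries, SNAI1 followed, above 77.3% of genes, and SNAI2 had 49.9% of genes lower. For these 2 genes that mean includes the higher knockdown libraries. SNAI1 averaged 24.45 FPKM over the 9 libraries and 12.51 FPKM in X453_NC, and SNAI2 averaged 8.94 and 4.03 FPKM. The shares for the control libraries alone were not computed. ZEB1 was above 31.7% and FN1 (fibronectin), a matrix glycoprotein, above 13.6% of genes. In X453_NC the order was VIM, EPCAM, CDH1, SNAI1, ZEB1, SNAI2 and FN1, and ZEB1 and SNAI2 were the only neighbours whose control libraries overlapped (4.24 to 4.39 FPKM against 3.83 to 4.29 FPKM). In X453_1 and X453_2 SNAI2 stood above ZEB1 in each library.

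By the coordinates in the table (GRCh37.p13), CDH1 lies on chromosome 16 (68771193 to 68869445, plus strand), EPCAM on chromosome 2 (47596287 to 47614167, plus strand) and VIM on chromosome 10 (17267254 to 17279602, plus strand). FN1 lies on chromosome 2 (216225163 to 216300793, minus strand) and SNAI1 on chromosome 20 (48599513 to 48605423, plus strand). SNAI2 lies on chromosome 8 (49830236 to 49833999, minus strand) and ZEB1 on chromosome 10 (31604889 to 31818742, plus strand), and CDH2 and ZEB2 lie on chromosomes 18 (25530927 to 25757410) and 2 (145141942 to 145277958), both on the minus strand. The FPKM of a gene covers its exons as a whole.

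CDH2 (N-cadherin), whose gain in place of E-cadherin is a classical sign of EMT, was listed at 0 in 8 libraries and at 0.01 FPKM in X453_NC replicate r1. A listed 0 stands for less than 0.005 FPKM, and 0.01 FPKM of CDH2 corresponds to about 1 fragment. ZEB2 was listed at 0.01 FPKM in X453_NC, X453_NC_r2 and X453_2_r1, about 2 to 3 fragments each, and at 0 in the other 6 libraries. Neither gene exceeded 0.01 FPKM in any of the 9 libraries. Tested without the filter on low values, their log2 fold changes lay between -0.01 and 0.01 and their adjusted P between 0.58 and 1 in the 3 comparisons.

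Knockdown libraries held more RNA of SNAI1 and SNAI2 than control libraries, in X453_1 and more so in X453_2. SNAI1 was at 13.27, 11.68 and 12.59 FPKM in the X453_NC libraries, at 25.02, 27.57 and 26.7 FPKM in X453_1, and at 33.48, 33.06 and 36.67 FPKM in X453_2. Its groups did not overlap and rose in the order X453_NC, X453_1 and X453_2. The share of all tested genes with this order was not computed. SNAI2 was at 3.83, 4.29 and 3.98 FPKM in X453_NC, at 8.64, 9.4 and 9.01 FPKM in X453_1, and at 14.5, 13.1 and 13.71 FPKM in X453_2. The same order without overlap held for SNAI2, and the ratio of its mean FPKM to the control was 2.24 in X453_1 and 3.41 in X453_2, beside 2.11 and 2.75 for SNAI1.

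On the log2(FPKM + 1) scale, SNAI1 rose by 1.02 (SE 0.057, limma adjusted P = 4.0e-07) in X453_1 and by 1.39 (SE 0.057, limma adjusted P = 3.0e-08) in X453_2. SNAI2 rose by 0.99 (SE 0.052, limma adjusted P = 3.0e-07) in X453_1 and by 1.55 (SE 0.052, limma adjusted P = 9.6e-09) in X453_2. Only 0.761% and 0.908% of the tested genes had a larger rise than SNAI1 and SNAI2 in X453_1, and 0.636% and 0.419% in X453_2. A called gene needed a fold change of at least 1.3 (0.38 on the log2 scale) and an unadjusted P of at most 0.05. SNAI1 and SNAI2 were the only markers called in both knockdown groups, and 7.65% of all tested genes were called higher in both. A value of FPKM + 1 understates the fold of a low gene such as SNAI2. SNAI1 was covered by 480 to 1389 fragments a library and SNAI2 by 215 to 721 fragments a library, as estimated from depth and length.

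**Figure D1:**
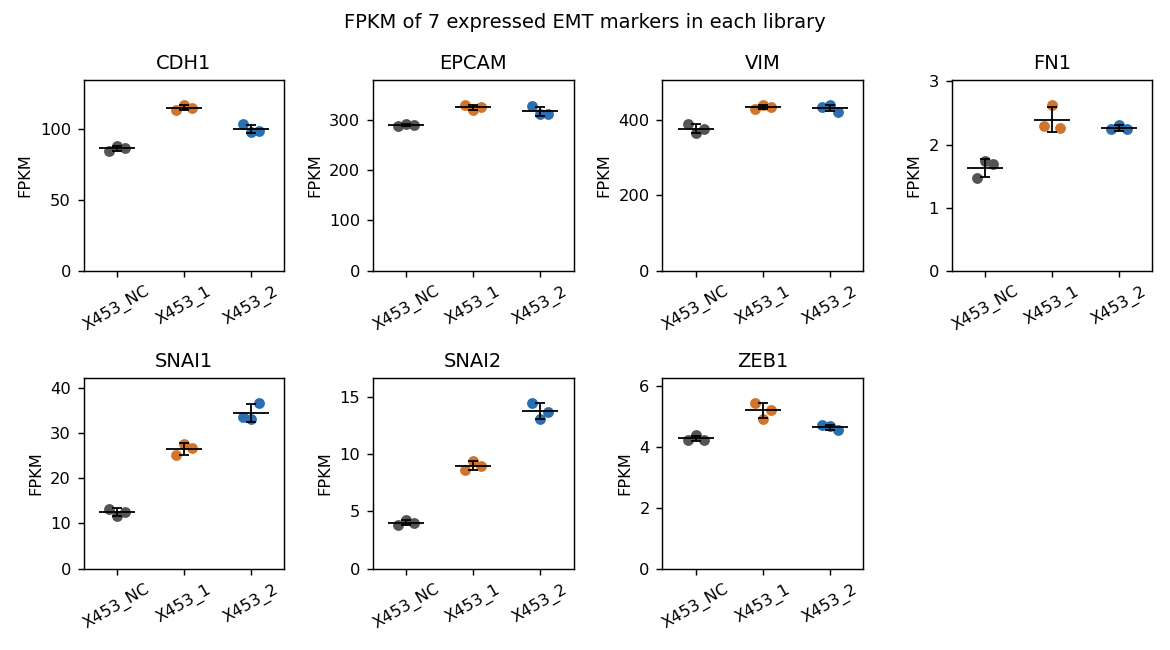
FPKM of the 7 expressed EMT markers (y axis, from 0) in each library of X453_NC, X453_1 and X453_2 (x axis); points are libraries, long bars the mean and error bars the SD of 3 libraries. The X453_1 and X453_2 points lie above all X453_NC points for each marker, with the widest separation for SNAI2 (4.03, 9.02 and 13.8 FPKM on average) and SNAI1 (12.5, 26.4 and 34.4 FPKM).

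The epithelial markers were not lower in the knockdown libraries. CDH1, the classical target of Snail repression, was at 84.7, 88.15 and 86.89 FPKM in X453_NC, at 113.8, 117.33 and 115.17 FPKM in X453_1, and at 103.45, 97.95 and 99.16 FPKM in X453_2. Each knockdown library lay above each control library, and X453_2 lay between the other groups. CDH1 rose by 0.41 (SE 0.030, limma adjusted P = 2.1e-06) in X453_1. With a correction for GC content its difference in X453_1 was 0.32 on the log2 scale, under the fold limit. In X453_2 the difference of CDH1 was 0.21 (SE 0.030, limma adjusted P = 1.4e-04), also under the fold limit.

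EPCAM was at 287.29, 290.74 and 289.32 FPKM in X453_NC, at 329.59, 319.15 and 326 FPKM in X453_1, and at 326.67, 311.69 and 311.74 FPKM in X453_2. Both knockdown groups lay above the control without overlap and overlapped each other. The differences of 0.17 (SE 0.027, limma adjusted P = 3.3e-04) and 0.13 (SE 0.027, limma adjusted P = 1.4e-03) were larger than the spread between libraries but under the fold limit.

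The mesenchymal markers VIM and FN1 were also slightly above the control without passing the fold limit. VIM was at 391.11, 366.06 and 375.96 FPKM in X453_NC, at 430.9, 440.74 and 435.66 FPKM in X453_1, and at 434.91, 439.2 and 422.8 FPKM in X453_2. The log2 difference of VIM was 0.21 (SE 0.029, limma adjusted P = 1.6e-04) in X453_1 and 0.20 (SE 0.029, limma adjusted P = 1.9e-04) in X453_2. The ratio of VIM to CDH1 was 4.37 ± 0.23 (SD, n = 3) in X453_NC, 3.78 ± 0.016 in X453_1 and 4.32 ± 0.15 in X453_2.

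FN1 was at 1.47, 1.74 and 1.69 FPKM in X453_NC, at 2.3, 2.63 and 2.26 FPKM in X453_1, and at 2.24, 2.31 and 2.24 FPKM in X453_2. It was the lowest of the expressed markers, with 357 to 564 fragments a library, and its knockdown libraries did not overlap with the control. The mean FPKM was 1.47 and 1.39 times the control in X453_1 and X453_2. The log2 difference of FPKM + 1 was 0.37 (SE 0.064, limma adjusted P = 6.5e-04) in X453_1 and 0.31 (SE 0.064, limma adjusted P = 1.6e-03) in X453_2, just under the fold limit. With 0.1 in place of 1 FPKM added before the logarithm, FN1 passed the limit in X453_1 (0.53) and in X453_2 (0.45). Leaving out X453_1, X453_1_r2, X453_NC_r1 or X453_NC_r2 in turn also moved FN1 past the limit in X453_1, at 0.38 to 0.40.

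ZEB1 was at 4.25, 4.39 and 4.24 FPKM in X453_NC, at 5.46, 4.94 and 5.22 FPKM in X453_1, and at 4.72, 4.68 and 4.55 FPKM in X453_2. The groups were again ordered without overlap, with X453_1 the highest, and the share of all tested genes with this order was not computed. The log2 difference of ZEB1 was 0.23 (SE 0.045, limma adjusted P = 1.4e-03) in X453_1, under the fold limit. In X453_2 it was 0.09 (SE 0.045, limma adjusted P = 0.087), with a 95% interval from -0.007 to 0.195, so a difference of ZEB1 was not resolved there. SNAI3, a further Snail family member that is not one of the 10 markers and was named after its values were seen, averaged 4.28, 4.04 and 4.19 FPKM and was not called. ZEB1 has 46 transcripts listed in the table, and FPKM of the gene does not separate them.

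Of the 7 expressed markers, 3 were called higher in X453_1 (SNAI1, SNAI2 and CDH1) and 2 in X453_2 (SNAI1 and SNAI2), and none was called lower. Over all 12884 tested genes, 11.1% were called higher and 15.6% lower in X453_1, and 11.0% were called higher and 23.1% lower in X453_2. All 7 markers had each knockdown library above each control library, an arrangement that 35.0% of tested genes showed in X453_1 and 26.9% in X453_2. The median log2 difference of all tested genes was 0.003 in X453_1 and -0.095 in X453_2, and -0.0041 in X453_2 after median-ratio scaling, under which all 7 markers kept a positive difference from the control. Scaling changed the split over all tested genes in X453_2 from 1411 higher and 2974 lower to 1975 higher and 2246 lower. Both comparisons use the same 3 control libraries and are not independent of each other.

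The smaller differences depended on the scaling and on GC content, while those of SNAI1 and SNAI2 stayed called in both groups. After median-ratio scaling the X453_2 differences were 0.31 for CDH1, 0.24 for EPCAM, 0.30 for VIM and 0.18 for ZEB1 (limma adjusted P = 4.4e-03 for ZEB1), and FN1 passed the fold limit at 0.382. With the GC content correction, run on the 11380 genes with a transcript sequence, EPCAM was at 0.07 in X453_1 and 0.04 in X453_2 (limma adjusted P = 0.015 and 0.13). VIM was then at 0.11 in X453_1 and 0.10 in X453_2, ZEB1 at 0.11 and 0.03, and CDH1 at 0.12 in X453_2.

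**Figure D2:**
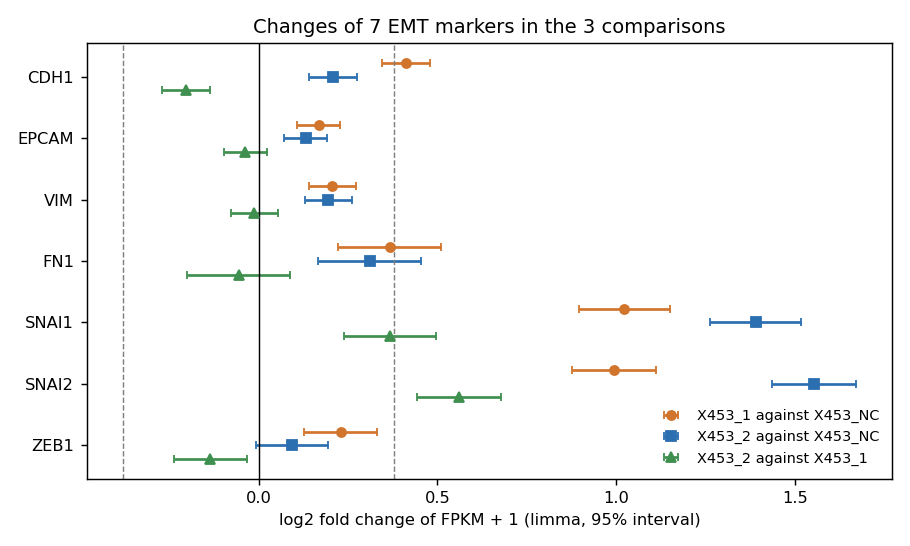
Log2 fold change of FPKM + 1 (x axis) of the 7 expressed EMT markers (y axis) in X453_1 against X453_NC, X453_2 against X453_NC and X453_2 against X453_1; points are limma estimates, bars 95% intervals and dashed lines the fold limit of 1.3. SNAI1 and SNAI2 lie between 0.99 and 1.55 in the comparisons with the control, while the other 5 markers lie between 0.09 and 0.41.

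The knockdown groups differed from each other in SNAI2 and, by less, in SNAI1, CDH1 and ZEB1. SNAI2 was higher in X453_2 than in X453_1 by 0.56 (SE 0.052, limma adjusted P = 5.6e-05), and it was the only marker called. SNAI1 differed by 0.37 (SE 0.057, limma adjusted P = 8.5e-04), just under the fold limit. SNAI1 passed the limit without X453_1_r1 (0.40), without X453_2 (0.39), without X453_2_r1 (0.40) or after scaling by median ratios (0.47). Of all tested genes, 2.19% were called higher and 5.45% lower in X453_2 than in X453_1, with a median log2 difference of -0.081. How many genes did not overlap between the knockdown groups was not computed. CDH1 was lower in each X453_2 library than in each X453_1 library, with a difference of -0.20 (SE 0.030, limma adjusted P = 6.7e-04), and so was ZEB1 at -0.14 (SE 0.045, limma adjusted P = 0.035), both under the fold limit. After median-ratio scaling these differences were -0.10 for CDH1 (limma adjusted P = 0.032) and -0.05 for ZEB1 (limma adjusted P = 0.44), and the split of all tested genes moved from 282 higher and 702 lower to 524 and 321. With the GC content correction ZEB1 was at -0.08 (limma adjusted P = 0.12).

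VIM (-0.01, 95% interval -0.077 to 0.054), EPCAM (-0.04, 95% interval -0.096 to 0.022) and FN1 (-0.06, 95% interval -0.200 to 0.088) overlapped between X453_2 and X453_1. The ratio of SNAI1 to SNAI2 was 3.12 ± 0.37 (SD, n = 3) in X453_NC, 2.93 ± 0.034 in X453_1 and 2.5 ± 0.18 in X453_2.

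**Figure D3:**
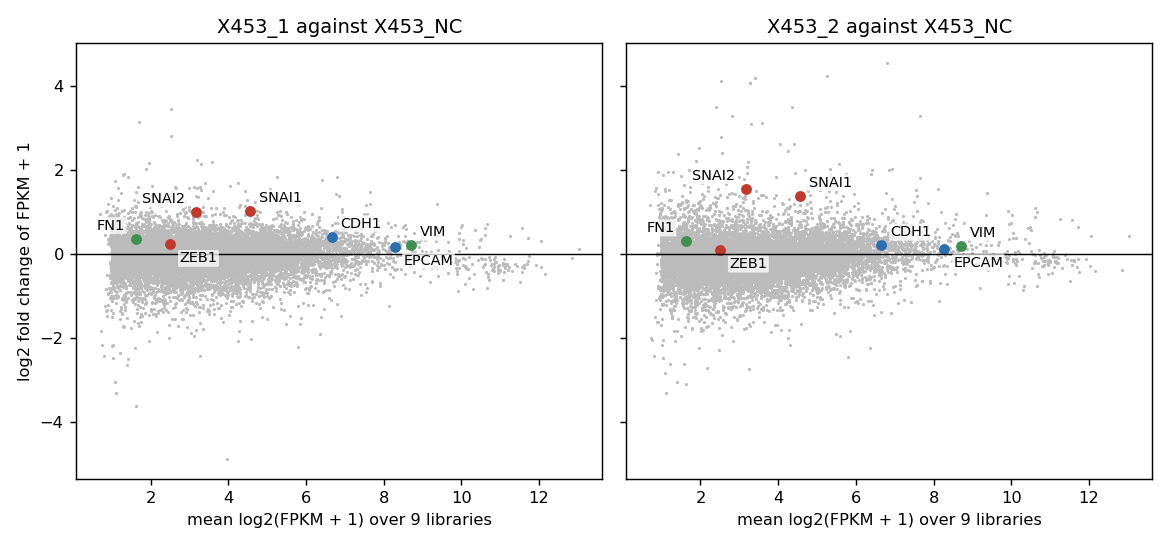
Log2 fold change of FPKM + 1 (y axis) against the mean log2(FPKM + 1) over 9 libraries (x axis) for all 12884 tested genes (grey) in each comparison with X453_NC, with SNAI1, SNAI2 and ZEB1 in red, CDH1 and EPCAM in blue and VIM and FN1 in green. SNAI1 and SNAI2 sit at the upper edge of the genes in both panels, with under 1% of genes higher (0.419% to 0.908%), and the other 5 markers sit within the bulk.

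Genes with the profile most like each marker over the 9 libraries are given as a description, by Pearson r of log2(FPKM + 1), and such values are high for many genes where groups differ. For SNAI1 they were FOSL1, an AP-1 subunit (r = 0.998), PLAUR, the urokinase receptor (r = 0.997), and CSRNP1 (r = 0.996). FOSL1 averaged 88.5, 134 and 155 FPKM in X453_NC, X453_1 and X453_2, and PLAUR averaged 38.3, 69.4 and 85.3 FPKM. For SNAI2 they were the cell cycle kinase CDK2 (r = 0.999), the glycogen branching enzyme GBE1 (r = 0.998) and ZBTB43 (r = 0.997). CDH1 was followed most closely by SERINC5, PAPD5 and TNRC6B (r = 0.998, 0.996 and 0.995), and ZEB1 by SUCO, SPOCD1 and the predicted gene BGI_novel_G001267 (r = 0.979, 0.978 and 0.975). For EPCAM they were UTP11, GNAI3 and FH (r = 0.99, 0.99 and 0.988), for VIM TIMMDC1, BGI_novel_G001196 and EPS15L1 (r = 0.986, 0.984 and 0.98), and for FN1 ZNF592, MCMBP and UGDH (r = 0.982, 0.98 and 0.98).

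The rest of the junction machinery did not move in 1 direction as a whole. Of 18 other cadherins and catenins, 9 were tested. Their median log2 difference was 0.195 in X453_1 and 0.120 in X453_2 (0.204 in X453_2 after median-ratio scaling). In X453_1 only CDH17 (LI-cadherin, an intestinal cadherin) was called, higher by 0.50. In X453_2 only CDH13 (T-cadherin, which lacks a cytoplasmic tail) was called, lower with a log2 difference of -0.57. Over all tested genes, 11.1% were called higher and 15.6% lower in X453_1, and 11.0% and 23.1% in X453_2. The catenins CTNNA1, CTNNB1 and JUP were abundant and not called. CTNNA1 averaged 215, 233 and 214 FPKM in X453_NC, X453_1 and X453_2, CTNNB1 averaged 144, 165 and 143 FPKM, and JUP averaged 141, 171 and 178 FPKM. All tested catenins lay above the control in X453_1, from 0.114 (CTNNA1) to 0.277 (JUP) on the log2 scale. In X453_2 CTNNA1 and CTNNB1 lay at -0.004 and -0.015, and JUP at 0.335.

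Of 33 epithelial junction genes, 29 were tested, of which 5 rose and 9 fell in X453_1 (beside 11.1% and 15.6% of all tested genes) and 4 rose and 8 fell in X453_2 (beside 11.0% and 23.1% of all tested genes), with median log2 differences of 0.02 and -0.09 (0.01 in X453_2 after median-ratio scaling of the libraries). Of the 29 tested, 7 fell in both groups and 3 rose in both, beside 7.65% of all tested genes that rose in both. The share of all tested genes that fell in both was not computed. DSP (desmoplakin), which anchors keratin to desmosomes, rose from 70.8 ± 2.9 FPKM to 101 ± 0.26 FPKM in X453_1 and 100 ± 2.3 FPKM in X453_2. The tight junction protein CLDN7 fell from 26.1 ± 0.92 FPKM to 12.5 ± 0.15 and 12.4 ± 0.78 FPKM, and the desmosomal plakophilin PKP3 fell from 62.2 ± 5.7 FPKM to 29 ± 2.8 and 33.8 ± 3.7 FPKM (SD, n = 3). TJP3 (ZO-3), a scaffold of tight junctions, fell from 15.3 ± 1.2 FPKM to 8.53 ± 0.63 and 8.26 ± 0.6 FPKM. CLDN4 averaged 99.5 ± 7.5 FPKM in X453_NC and 117 ± 7.3 FPKM in X453_1, where it was not called, and rose to 195 ± 11 FPKM in X453_2. NECTIN2 stayed uncalled at 55.6, 55.4 and 53.4 FPKM.

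Of 25 epithelial regulators and surface proteins, 15 were tested, of which 5 rose and 2 fell in X453_1 (beside 11.1% and 15.6% of all tested genes) and 4 rose and 2 fell in X453_2 (beside 11.0% and 23.1% of all tested genes). The medians were 0.01 and 0.14, the latter 0.24 after scaling. ELF3, an epithelial ETS factor, rose from 73.4 ± 2.6 FPKM to 107 ± 2.3 and 156 ± 7.6 FPKM, and KLF5 rose from 136 ± 1.3 FPKM to 192 ± 3.9 and 189 ± 9.3 FPKM. The mucin MUC1 rose from 12.9 ± 0.74 FPKM to 21.9 ± 0.61 and 22.3 ± 2.3 FPKM. ESRP2, a splicing factor that maintains epithelial isoforms, fell from 16.9 ± 0.27 FPKM to 9.64 ± 0.45 and 8.0 ± 0.52 FPKM. The protease inhibitor SPINT2 was not called, at 227, 207 and 251 FPKM.

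Of 41 mesenchymal matrix and cytoskeleton genes, 24 were tested, of which 9 rose and 2 fell in each knockdown group, 9 of them rising in both. Over all tested genes, 11.1% rose and 15.6% fell in X453_1, 11.0% rose and 23.1% fell in X453_2, and 7.65% rose in both. The medians were 0.21 in X453_1 and -0.04 in X453_2, the latter turning to 0.05 after median-ratio scaling. LOXL2, a lysyl oxidase that crosslinks collagen, rose from 1.98 ± 0.095 FPKM to 6.84 ± 0.5 and 6.91 ± 0.74 FPKM. The matrix protein TNC (tenascin C) rose from 15.8 ± 0.8 FPKM to 33.0 ± 0.88 and 33.3 ± 0.61 FPKM, and the calcium-binding S100A4 rose from 738 ± 22 FPKM to 1044 ± 42 and 1208 ± 53 FPKM. MYL9, a myosin light chain of contractile cells, fell from 12 ± 0.21 FPKM to 5.54 ± 0.36 and 3.63 ± 0.39 FPKM. TIMP1 and the integrin ITGB1 were not called, at 245, 291 and 301 FPKM and at 182, 209 and 179 FPKM.

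Marker genes of cell types moved in the same libraries. Of 6 tested luminal markers, 3 were called lower in each knockdown group and none higher, but not the same 3. KRT18 and XBP1 were called lower in both groups, KRT7 in X453_1 alone and ERBB2 in X453_2 alone. Over all tested genes, 15.6% and 23.1% were called lower in X453_1 and X453_2. KRT18, a luminal keratin, fell from 2433 ± 84 FPKM to 1770 ± 84 and 1739 ± 45 FPKM, and the luminal transcription factor XBP1 fell from 88.1 ± 1.2 FPKM to 65.6 ± 1.9 and 64.8 ± 1.6 FPKM. KRT8 (3617, 3224 and 3342 FPKM) and KRT19 (1180, 1122 and 1210 FPKM) were not called. GATA3, under the filter, averaged 0.433, 0.767 and 0.643 FPKM. The summed FPKM of the 9 luminal markers, most of it KRT8, KRT18 and KRT19, was 7043 to 7687 in X453_NC, 5840 to 6483 in X453_1 and 5988 to 6672 in X453_2. KRT17, the 1 tested gene of 5 basal markers, fell from 9.51 ± 0.85 FPKM to 7.03 ± 0.51 and 5.43 ± 0.21 FPKM. Under the filter, KRT5 averaged 0.533, 0.403 and 0.4 FPKM, while TP63 went the other way at 0.117, 0.25 and 0.243 FPKM. COL1A1, which is in the mesenchymal list too, rose from 3.83 ± 0.32 FPKM to 5.54 ± 0.27 and 6.47 ± 0.9 FPKM. LUM, the other tested fibroblast marker, averaged 5.75, 6.82 and 5.45 FPKM and was not called. The summed FPKM of the 5 fibroblast markers, most of it COL1A1 and LUM, was 9.54 to 10.2, 12.5 to 12.9 and 11.3 to 12.7. None of the 5 immune and endothelial markers with a line passed the filter. The part of these genes in the results above was not tested, and fewer cells of a type and less RNA per cell cannot be told apart in bulk libraries.

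**Figure D4:**
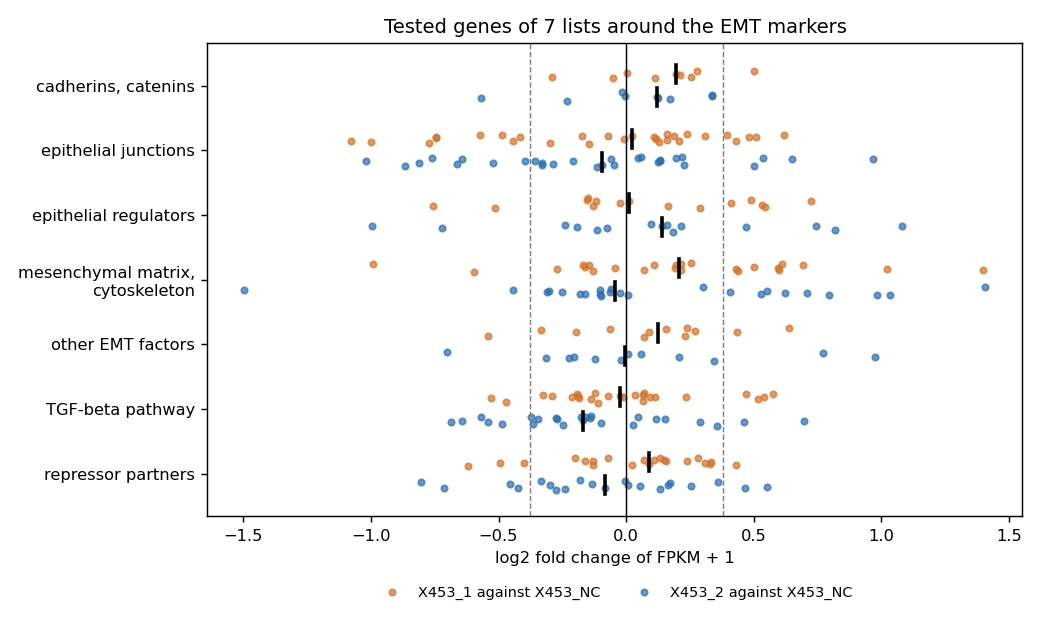
Log2 fold change of FPKM + 1 (x axis) of the tested genes in 7 lists around the EMT markers (y axis), in X453_1 (orange) and X453_2 (blue) against X453_NC; vertical bars are list medians and dashed lines the fold limit of 1.3. Genes of each list lie on both sides of 0, with medians from -0.17 (TGF-beta pathway, X453_2) to 0.21 (mesenchymal genes, X453_1).

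Among 18 further transcription factors linked to EMT, 12 were tested, and 2 rose and 1 fell in both knockdown groups. Over all tested genes, 11.1% rose and 15.6% fell in X453_1, 11.0% rose and 23.1% fell in X453_2, and 7.65% rose in both. The 2 that rose were ID2 (from 16.0 ± 0.37 FPKM to 25.5 ± 0.94 and 32.5 ± 1.7 FPKM) and ID3 (from 3.22 ± 0.48 FPKM to 4.69 ± 0.34 and 6.18 ± 0.22 FPKM), inhibitors that bind E proteins. FOXQ1, a forkhead factor, fell from 67.7 ± 3.5 FPKM to 46.2 ± 1.6 and 41.2 ± 2.2 FPKM. SOX9 and ID1 were not called, at 60.2, 64.1 and 51.4 FPKM and at 117, 92.8 and 94.3 FPKM.

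TGF-beta is the best-known inducer of the Snail factors. Of 31 genes of its pathway, 25 were tested, of which 4 rose and 2 fell in X453_1 (beside 11.1% and 15.6% of all tested genes) and 2 rose and 5 fell in X453_2 (beside 11.0% and 23.1% of all tested genes). The medians were -0.03 and -0.17, the latter -0.07 after scaling. SMAD3, a signal transducer of the pathway, rose from 33.4 ± 1.6 FPKM to 49.0 ± 0.86 and 46.4 ± 1.0 FPKM, and its inhibitor SMAD7 rose from 2.55 ± 0.29 FPKM to 4.08 ± 0.43 and 4.75 ± 0.45 FPKM. LTBP3, which holds latent TGF-beta in the matrix, fell from 59.7 ± 4.7 FPKM to 42.7 ± 2.2 and 37.9 ± 3.7 FPKM, and the co-receptor ENG fell from 1.76 ± 0.17 FPKM to 0.907 ± 0.085 and 0.713 ± 0.097 FPKM. The ligand BMP4 was not called, at 68.7, 74.4 and 57.7 FPKM. SMAD4, the common partner of the receptor-activated SMADs, was named after its values were seen and lay between 0.09 and 0.16 FPKM in all 9 libraries, under the filter.

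Of 24 cofactors and protein regulators of the Snail factors, 21 were tested, of which 1 rose and 3 fell in X453_1 (beside 11.1% and 15.6% of all tested genes) and 2 rose and 4 fell in X453_2 (beside 11.0% and 23.1% of all tested genes), with medians of 0.09 and -0.08 (0.01 in X453_2 after scaling). The histone deacetylase HDAC1, a corepressor, rose from 141 ± 3.7 FPKM to 191 ± 3.0 and 208 ± 2.2 FPKM. FBXL14, a ubiquitin ligase subunit that directs Snail proteins to degradation, fell from 6.74 ± 0.14 FPKM to 4.50 ± 0.42 and 3.72 ± 0.34 FPKM, and the LIM protein AJUBA, a Snail corepressor, fell from 13.1 ± 0.52 FPKM to 8.18 ± 0.055 and 7.09 ± 0.35 FPKM. The demethylase KDM1A was not called in either group, at 66.3, 83.5 and 74.8 FPKM, and the kinase CSNK1E (70.1, 82.8 and 97.2 FPKM) was called higher in X453_2 alone. Protein levels of the Snail factors were not analysed here.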

How the data were processed

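RNA was extracted with Trizol and sequenced on the BGISEQ-500 platform. The authors deposited 1 table of FPKM per gene and library, rounded to 2 decimals, with the FPKM columns given 2 times; the submitters' processing notes name Bowtie2 (version 2) and GRCh37.p13, and the tool that computed FPKM is not given in the sources used here. The table also holds the authors' log2 ratios, P and Q values between pooled groups, which were not used, and 4 lines without values, which were left out. FPKM holds no raw counts, so library depth was worked out from the spacing of low FPKM values in short genes (300 to 900 bases) and bears only on the fragment numbers given. Within groups, squared differences between libraries were 3.51 to 7.8 times the sampling noise over 9 pairs, so no pair was treated as 1 library deposited 2 times.

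Differences were tested with limma 3.58.1 (lmFit, and eBayes with a trend) in R 4.3.3 on log2(FPKM + 1), over all 9 libraries with group as the only factor, in the 12884 genes whose mean over libraries reached 1 FPKM, with Benjamini-Hochberg adjustment over all of them. The method was tested on simulated data. The call criteria stated in the report were those of the study. Python 3.11.15 was used with numpy 2.4.6, pandas 2.3.3 and, for figures, matplotlib 3.10.9. The markers and gene lists were chosen with earlier results of these data known. From each list the text names the 3 genes with the highest mean FPKM and up to 3 called in both groups with the largest mean change. CDH17, CDH13, FOXA1, GATA3, ERBB2, KRT7, COL1A2, DCN, PTPRC, SNAI3 and SMAD4 were added after values were seen. One further marker gene is not reported here. Alternatives were other pseudocounts, filters, thresholds and scaling, a GC content correction, a block on the replicate label and leaving out each library.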

Additional observations from a re-analysis of the deposited data

Results flagged for a closer look

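The knockdown groups were compared with each other directly, and 4 markers had a limma adjusted P of at most 0.05 for that difference (X453_2 minus X453_1, log2 of FPKM + 1). Over all 12884 tested genes, 1313 were higher and 4362 lower by the same threshold. SNAI2 differed by 0.56 and SNAI1 by 0.37, with X453_2 the higher in each library. CDH1 differed by -0.20 and ZEB1 by -0.14, with X453_1 the higher in each library. The difference of ZEB1 had an adjusted P of 0.44 after median-ratio scaling and 0.12 with the GC content correction. In the comparisons with X453_NC, SNAI1 and SNAI2 thus had the larger rise in X453_2 while CDH1 and ZEB1 had the larger difference in X453_1. No group had the 4 libraries needed to look for a library that stands apart.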

How the results depend on the processing

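Over 414 recomputed marker differences, 382 kept their direction and their side of the threshold. Of the others, 5 fell below the threshold, 23 moved past it and 4 turned direction. Many of the 414 could not turn direction, because the setting left the log2 difference unchanged. This held for the expression filters, the call thresholds, the replicate block and the fit on only the groups compared. It also held for leaving out a library of the group not compared. A fold limit of 2 could not move an uncalled marker past the threshold. The 382 is therefore not a measure of how robust the differences were. The count of called markers in X453_1 was 3, and it was 1 with a fold limit of 2 (SNAI1), 7 by adjusted P with no fold limit, 4 with 0.1 FPKM added (FN1 joining) and 3 to 4 when each library was left out. In X453_2 the count was 2, and it was 6 with no fold limit and 3 with 0.1 FPKM added or median-ratio scaling (FN1 joining). Between X453_2 and X453_1 the count was 1, and it was 2 with 0.1 FPKM added or median-ratio scaling, 0 with a fold limit of 2, 4 with no fold limit, and 1 to 2 when each library was left out. The 4 that turned direction were not called and lay between X453_2 and X453_1: with median-ratio scaling EPCAM was at 0.070, FN1 at 0.019 and VIM at 0.095, and with each library left out VIM ranged from -0.023 to 0.004, turning without X453_2_r2. Scaling raised X453_2 relative to the other groups, where the median of all genes was -0.095 before and -0.0041 after it. Genes called higher and lower numbered 1432 and 2004 in X453_1 and 1411 and 2974 in X453_2, against 105 and 261, and 214 and 390, with a fold limit of 2, 4133 and 4163, and 3349 and 5772, with no fold limit, and 926 and 1285, and 947 and 1767, with a mean of at least 5 FPKM. Between the knockdown groups, 282 and 702 became 27 and 13 (fold limit of 2), 1313 and 4362 (no fold limit), 200 and 347 (mean of at least 5 FPKM) and 353 and 1303 (0.1 FPKM added). With the replicate block, the counts of called markers stayed at 3, 2 and 1. Same-labelled libraries deviated together with correlations of only -0.239 to 0.104, so the labels do not pair them. The GC content correction left 2 called markers in X453_1.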
